A study of Mus musculus with 14 samples.

Results

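The step from day 3 to day 5 of muscle overload was described over all annotated genes, by setting the samples labelled day 5 against those labelled day 3. It rests on 4 of the 14 arrays of the series, 2 at each of the 2 days. All 4 samples were plantaris muscles taken from male C57BL/6J mice at 5 months of age, in which overload had been produced by synergist ablation, an operation that removes the muscles sharing the work of the plantaris. The day 5 group and the day 3 group each consisted of 1 pool of right muscles and 1 pool of left muscles, with muscle of 6 animals in a pool. The samples include no sham-operated group, and whether both pools of a day held muscles of the same 6 animals is not stated in the labels. The p-values therefore rest on pool-to-pool spread, part of which may be technical. If both pools of a day held muscles of the same animals, that spread would hold no variation between animals. The p-values would then not measure whether the step repeats in other mice. Each pool was hybridised to 1 Affymetrix Mouse Gene 1.0 ST array, and the values below are log2 of the deposited intensity. Where 2 values of a day are given, the right pool comes before the left.

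Overloaded muscle first passes through an inflammatory phase, in which neutrophils and then monocytes enter from the blood. Satellite cells, the stem cells of muscle, leave rest, divide as myoblasts, switch on the regulator Myog and fuse with each other or with existing fibres. Young or regenerating fibres make embryonic and neonatal forms of the contractile proteins and spread acetylcholine receptors with a gamma subunit over their surface, while fibroblasts lay down collagen around them.

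The 6 markers of muscle fibres (Ckm, Acta1, Myh4, Mylpf, Tnnt3 and Des) lay between 12.19 and 14.31 on all 4 arrays, and 0 of them were called changed. Array medians of the 14 arrays lay between 242.8 and 254.9 on the linear scale. Genes of hepatocytes, which are not expected in muscle, differed between pools: the mean over 20 of them was 7.77 and 9.58 at day 5, against 9.78 and 10.55 at day 3. Of these 20 genes 0 were called (1 had an unadjusted p under 0.05 in limma, and 0 were called under each alternative run for gene lists), with differences between -2.31 and -0.42. Their part in the results was not tested as a cause. A fit with their mean as a covariate is quoted beside groups whose count of 4 or more it moved by over 1.5 times, and a few others.

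Between day 3 and day 5, 2225 of 19938 genes changed (11.2%) in limma's moderated test at an adjusted p under 0.05. Of these, 1279 rose (6.41% of all genes) and 946 fell (4.74%). Counts of gene lists below are to be read beside these shares of rises and falls. More than 2-fold changes were found for 143 genes (0.717%), 115 higher (0.577%) and 28 lower (0.14%). The median over all genes was -0.06, and both day 5 pools lay above both day 3 pools for 4634 genes (23.2%) and below them for 7768 genes (39%). The dimmest of 3 equal gene classes by mean intensity held 450 of the 2225 calls and 340 of the 946 falls. Without that class the median was 0.003, and rises made up 62.8% of the genes called, against 57.5% with it. With 1 pool left out, its day rests on a single pool and its spread is taken from the other days. The number called was then 697 without the day 3 right pool, 1204 without the day 3 left pool, 1651 without the day 5 right pool and 790 without the day 5 left pool. The falls depended most on single pools, with 178, 420, 604 and 207 called lower in that order. Not all of the 167 named genes that were called kept their call without each of the 14 pools in turn, and 0 changed sign under any alternative. Most were chosen for their call and large difference. Where the pools of the days do not overlap, leaving out 1 pool cannot turn the sign. These results therefore do not measure how the calls over all genes hold.

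**Figure D1:**
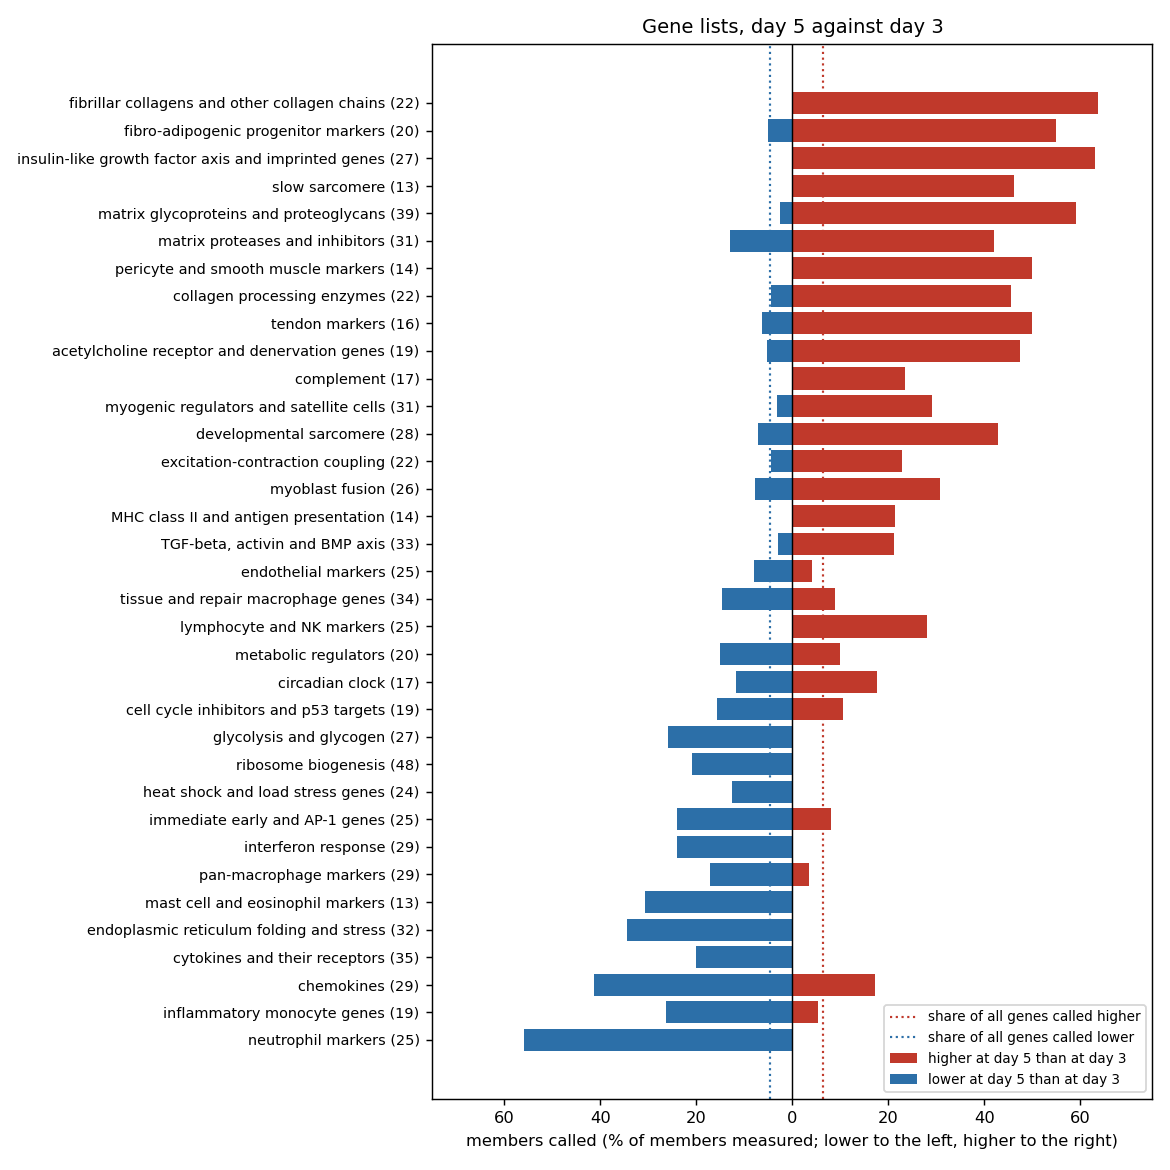
Share of the measured members of each gene list (number in parentheses) that was called lower (bars to the left) or higher (bars to the right) at day 5 than at day 3, for lists with at least 3 called members, ordered by the list's median difference. Dotted lines mark the shares over all genes, 6.41% higher and 4.74% lower. Collagen chains, with a median of 0.54, stand at the top and neutrophil markers, with -0.79, at the bottom.

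Genes of the developing contractile apparatus were among the largest rises. Outside that group, Tecrl, a reductase-like gene known for its part in heart rhythm in humans, had the largest difference of the named genes. It had 7.71 and 7.86 at day 5, against 5.44 and 4.92 at day 3, a difference of 2.61 ± 0.21 (SE of the fit with 2 pools a day, adjusted p = 4.48e-05). It is a dim gene, in the lowest of 3 equal classes by mean intensity. Myh3, the embryonic myosin heavy chain, had 11.80 and 12.02 at day 5, against 9.59 and 9.38 at day 3 (adjusted p = 8.12e-05). The neonatal heavy chain Myh8 had 11.11 and 11.02 at day 5, against 9.22 and 8.95 at day 3, a difference of 1.98 ± 0.20 (adjusted p = 0.000178). For these genes the pools of a day lay far closer together than the days did. Pools that did not overlap were a condition for naming the largest rises, so this separation is no added support.

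Thin filament and light chain genes of the fetal or cardiac type followed. Actc1, the cardiac actin that fetal muscle also uses, had 13.55 and 13.74 at day 5, against 11.92 and 12.02 at day 3, a difference of 1.68 ± 0.18 (adjusted p = 0.000309). Tnnt2, cardiac troponin T, had 12.40 and 12.71 at day 5, against 11.15 and 10.91 at day 3 (1.53 ± 0.11, adjusted p = 3.44e-05). The embryonic essential light chain Myl4 stood at 13.53 and 13.54 in the day 5 pools, against 12.23 and 12.20 in the day 3 pools (1.32 ± 0.08). Of the 28 measured members of the developmental sarcomere list, 12 rose and 2 fell, with a median of 0.18, beside 6.41% and 4.74% over all genes. The rises numbered 12 without each of the 4 pools in turn. The members that fell were the stress-responsive repeat protein Ankrd1 (12.66 and 12.55 at day 5, against 13.15 and 13.10 at day 3) and the actin-binding Xirp1 (12.38 and 11.83 at day 5, against 12.79 and 12.67 at day 3), both known as genes that loaded or injured muscle switches on. Without the day 3 right pool, the day 3 left pool or the day 5 left pool neither fall was called (adjusted p = 0.145, 0.0789 and 0.152 for Ankrd1, and 0.135, 0.0549 and 0.0957 for Xirp1), Ankrd1 also missed without the day 5 right pool (0.0564), and Xirp1 with the 4 arrays alone (0.0652). In bulk muscle, more nuclei or cells of a kind and more RNA in each cannot be told apart.

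Several genes of slow fibres rose, among them the slow troponins, which young fibres also use. Tnnt1, slow troponin T, had 11.003 and 11.089 at day 5, against 9.06 and 9.24 at day 3 (1.90 ± 0.23, adjusted p = 0.000685). Tnni1, slow troponin I, had 11.86 and 11.99 at day 5, against 10.03 and 10.14 at day 3 (1.84 ± 0.25, adjusted p = 0.00106). Tnnc1, the troponin C of slow and cardiac muscle, stood at 11.16 and 11.65 at day 5, against 9.54 and 9.61 at day 3 (1.83 ± 0.32, adjusted p = 0.00576, and 0.0625 without the day 5 left pool). Of 13 slow sarcomere genes 6 rose and 0 fell (median 0.37; limma, 0 lower at an unadjusted p under 0.05), with 4 rises called without the day 3 right pool and 4 without the day 5 left pool. These 3 troponins are also in the developmental list. Of 27 fast sarcomere genes 0 rose and 2 fell (median 0.03; limma, 2 higher at an unadjusted p under 0.05). The falls were of Mybpc2, fast myosin-binding protein C (-0.58 ± 0.15), and Mylk2, the skeletal myosin light chain kinase (-0.51 ± 0.14). Neither fall was called without the day 3 right pool, the day 3 left pool or the day 5 left pool (adjusted p = 0.17, 0.0806 and 0.187 for Mybpc2, and 0.152, 0.125 and 0.247 for Mylk2) or with the 4 arrays alone (0.0691 and 0.0557), and the list had 5 falls and 0 rises without the day 5 right pool, against 0 falls and 3 rises without the day 5 left pool. The adult heavy chains Myh4 (-0.30 ± 0.12, adjusted p = 0.128) and Myh2 (0.37 ± 0.15, adjusted p = 0.123) did not pass the test, though Myh4 was called lower without the day 5 right pool and Myh2 higher without the day 5 left pool.

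**Figure D2:**
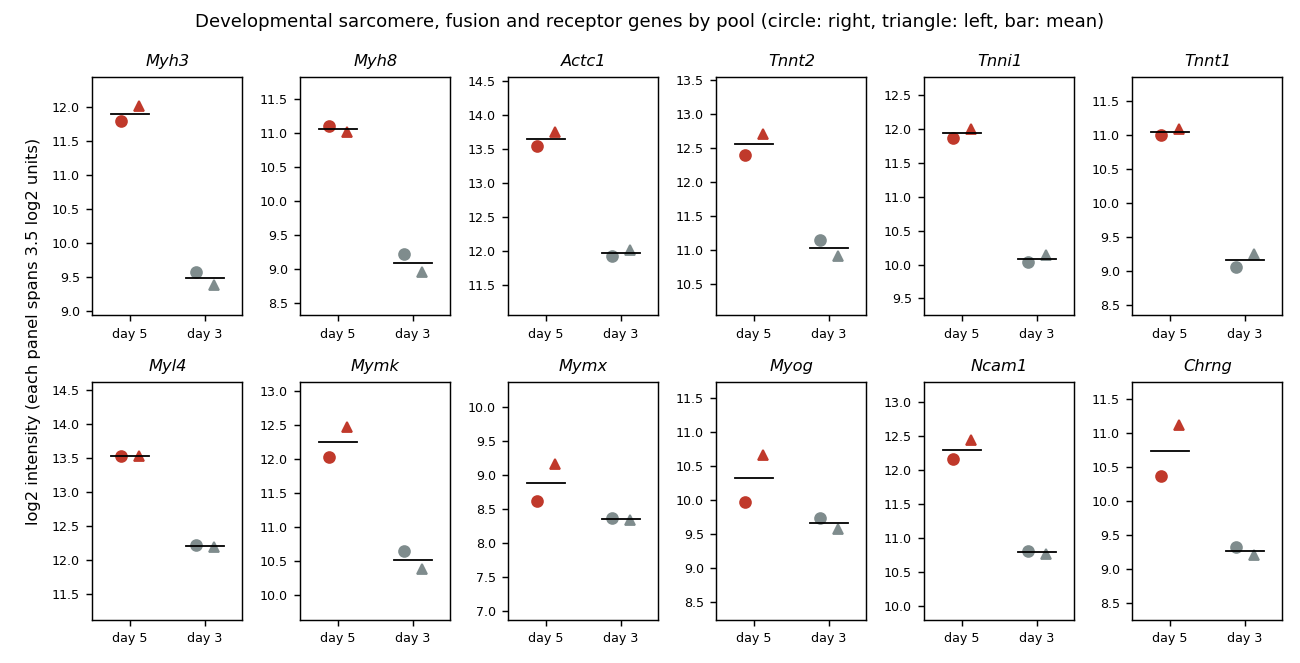
Log2 intensity of 12 genes of the developing sarcomere, of fusion and of the acetylcholine receptor in each pool, day 5 left of day 3, with right pools as circles, left pools as triangles and the day mean as a bar; every panel spans the same range of log2 units. In each panel both day 5 pools lie above both day 3 pools, by a wide gap for Myh3 and Myh8 and a narrow one for Mymx and Myog.

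The acetylcholine receptor genes rose with them. Chrng, the gamma subunit of fetal and denervated muscle, had 10.37 and 11.12 at day 5, against 9.33 and 9.21 at day 3, a difference of 1.48 ± 0.20 (adjusted p = 0.00108). Chrna1, the alpha subunit, had 11.95 and 12.23 at day 5, against 11.13 and 11.17 at day 3 (0.94 ± 0.10, adjusted p = 0.00021). Ncam1, a cell adhesion molecule of myoblasts and denervated fibres, had 12.16 and 12.44 at day 5, against 10.82 and 10.77 at day 3 (1.51 ± 0.12, adjusted p = 3.85e-05). Day 5 pools of all 3 genes lay above both day 3 pools. Of the 19 measured genes of the receptor and of denervation 9 rose and 1 fell (median 0.23). The rises numbered 4 without the day 3 right pool and 5 without the day 5 left pool. The member that fell was the growth arrest gene Gadd45a, at 9.50 and 9.57 at day 5, against 10.20 and 10.37 at day 3 (-0.75 ± 0.08, adjusted p = 0.000369).

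Myogenic regulators bind E-boxes, and the letters CAGCTG, read the same on both strands, are one form of that motif. RefSeq promoter windows of GRCm38.p6, which run from 250 bases before the start to 50 after it, held CAGCTG in 8 of 27 windows of the developmental sarcomere list (29.6%), 4 of 17 of the receptor list (23.5%), 5 of 23 of the fusion list (21.7%) and 4 of 25 of the myogenic regulators and satellite cell genes (16.0%), against 16.3% of all 32851 windows. Among the windows of genes that rose the shares were 4 of 13 (30.8%), 3 of 8 (37.5%), 1 of 4 and 1 of 8 (12.5%) in the same order, and the lists share genes. Windows and not genes were counted, and windows of a gene can overlap. In the developmental sarcomere list the 27 windows belonged to 24 genes, and the 13 windows of genes that rose to 11 genes. Windows of Tnni1 overlapped, so 1 and the same match in them was counted more than once. The 250 bases before the start are shown for the 3 genes of the developmental sarcomere and receptor lists with 2 matches each and a call at this step, with the matches in capitals. They are Chrng (chr1:87205561-87205810, plus strand, matches at -155 and -132 from the start), Chrna1 (chr2:73580339-73580588, minus strand, matches at -92 and -44) and Tnnt2 (chr1:135836084-135836333, plus strand, matches at -223 and -157). A match is a run of letters and not a measured site.
Chrng: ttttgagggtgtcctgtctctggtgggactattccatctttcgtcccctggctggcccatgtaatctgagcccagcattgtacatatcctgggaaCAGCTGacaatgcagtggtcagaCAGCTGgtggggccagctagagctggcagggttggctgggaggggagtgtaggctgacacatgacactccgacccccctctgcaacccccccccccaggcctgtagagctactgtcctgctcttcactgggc
Chrna1: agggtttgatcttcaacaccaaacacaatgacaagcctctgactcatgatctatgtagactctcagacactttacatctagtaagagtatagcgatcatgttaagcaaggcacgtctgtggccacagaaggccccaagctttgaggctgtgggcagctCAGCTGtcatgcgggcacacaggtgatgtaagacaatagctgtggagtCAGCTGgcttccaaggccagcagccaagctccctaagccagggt
Tnnt2: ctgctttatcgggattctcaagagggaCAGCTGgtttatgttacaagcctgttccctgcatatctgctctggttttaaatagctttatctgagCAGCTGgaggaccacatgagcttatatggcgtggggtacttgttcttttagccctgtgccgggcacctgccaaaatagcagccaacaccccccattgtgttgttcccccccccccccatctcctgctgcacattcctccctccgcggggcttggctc

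Fusion and differentiation genes changed less evenly. Mymk, the membrane protein myomaker that myoblasts need to fuse, had 12.03 and 12.47 at day 5, against 10.65 and 10.39 at day 3, a difference of 1.73 ± 0.13 (adjusted p = 3.85e-05). Its partner Mymx, myomixer, had 8.62 and 9.16 at day 5, against 8.37 and 8.34 at day 3 (0.54 ± 0.15, adjusted p = 0.0452). Myog, the regulator of terminal differentiation, had 9.97 and 10.67 at day 5, against 9.74 and 9.58 at day 3 (0.66 ± 0.17, adjusted p = 0.0309). Only the call on Mymk, of these 3, held without each pool. Mymx and Myog were not called without the day 3 right pool (adjusted p = 0.172 and 0.102), the day 3 left pool (0.134 and 0.126) or the day 5 left pool (0.262 and 0.119), or with the 4 arrays of these days alone (0.0885 for both), and Mymx also not without a pool of day 10 or day 14.

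Of 26 fusion genes 8 rose and 2 fell (median 0.13), and the rises numbered 1, 2 and 1 without the day 3 right pool, the day 3 left pool and the day 5 left pool, and 5 without a pool of day 10 or day 14. The junctional adhesion molecule Jam3 was a further member that rose (0.74 ± 0.15), though not without the day 3 right pool (adjusted p = 0.0976) or the day 5 left pool (0.102). Among 31 myogenic regulators and satellite cell genes 9 rose and 1 fell (median 0.20), and the rises numbered 3, 5 and 4 without the same 3 pools. Megf10, a satellite cell receptor, had 8.68 and 9.09 at day 5, against 7.99 and 8.03 at day 3 (0.87 ± 0.12, adjusted p = 0.00107). Pax7, the marker of satellite cells, differed by 0.28 ± 0.09 (adjusted p = 0.0731). Myod1, the regulator of commitment to muscle, had 11.20 and 11.64 at day 5, against 11.59 and 11.59 at day 3, so the groups overlapped (adjusted p = 0.357). The excitation-contraction coupling gene Casq2, the calcium store protein of slow and cardiac muscle, rose by 1.16 ± 0.11 (adjusted p = 0.00012). In that list 5 of 22 members rose and 1 fell (median 0.17), and the rises numbered 1 with the hepatocyte covariate and 1 without the day 3 right pool, the day 3 left pool or the day 5 right pool.

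Growth factor and imprinted genes held some of the largest rises. Igf2, the fetal insulin-like growth factor, had 12.41 and 12.46 at day 5, against 10.36 and 10.29 at day 3, a difference of 2.11 ± 0.09 (adjusted p = 1.47e-06). Zdbf2, a paternally expressed imprinted gene, had 9.42 and 9.74 at day 5, against 7.30 and 7.63 at day 3 (2.12 ± 0.14, adjusted p = 1.88e-05). Peg3, an imprinted zinc finger gene, had 11.18 and 11.48 at day 5, against 10.01 and 9.98 at day 3 (1.33 ± 0.12, adjusted p = 9.62e-05). Between the days these 3 genes were separated by more than the whole spread of their pools. Igf2 and Zdbf2 were named among the largest rises, for which pools that did not overlap were a condition. Their separation is therefore no added support.

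The imprinted inhibitor of cyclin-dependent kinases Cdkn1c had 10.24 and 10.39 at day 5, against 9.39 and 9.36 at day 3 (0.94 ± 0.10, adjusted p = 0.000194). Of the 27 measured members of the insulin-like growth factor axis and imprinted genes 17 rose and 0 fell (median 0.39; limma, 2 lower at an unadjusted p under 0.05), and 11 to 14 rose without 1 of the 4 pools, with 11 without the day 5 left pool. Igf1, the other growth factor of the family, had 11.30 and 11.33 at day 5, against 10.68 and 10.68 at day 3. Its pools did not overlap, but the fitted error drawn from all days was wide for it (0.64 ± 0.22, adjusted p = 0.0838). It was called with the 4 arrays alone (adjusted p = 0.00816), with the hepatocyte covariate (a difference of 0.91, adjusted p = 0.0068) and without a pool of day 1. Mstn, the inhibitor of muscle growth myostatin, had 8.62 and 7.97 at day 5, against 7.997 and 8.43 at day 3, with no order between the days (adjusted p = 0.796).

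Many genes of the extracellular matrix rose. Col12a1, a collagen that binds to the surface of fibrils, had 12.17 and 12.37 at day 5, against 11.08 and 11.05 at day 3, a difference of 1.21 ± 0.10 (adjusted p = 5.41e-05). Col14a1, a relative of it, had 11.21 and 11.16 at day 5, against 10.37 and 10.13 at day 3 (0.93 ± 0.10, adjusted p = 0.000369). Col6a3, of the microfibrils around fibres, had 11.96 and 12.04 at day 5, against 11.16 and 11.07 at day 3 (0.88 ± 0.07, adjusted p = 5.51e-05). Collagen chains rose in 14 of 22 cases, with falls in 0 (median 0.54; limma, 0 lower at an unadjusted p under 0.05), and 12 rose without each of the 4 pools in turn. The main fibrillar chains moved by less, with 13.44 and 13.52 at day 5, against 12.88 and 12.69 at day 3, for Col1a1 (0.69 ± 0.10, adjusted p = 0.00118), and 12.50 and 12.49 at day 5, against 12.11 and 11.90 at day 3, for Col3a1 (0.49 ± 0.08, adjusted p = 0.00432).

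Matrix glycoproteins and proteoglycans rose in 23 of 39 cases, with falls in 1 (median 0.37), and the rises numbered 15 without the day 3 right pool and 15 without the day 5 left pool. Mfap4, a microfibril protein, had 10.45 and 10.62 at day 5, against 9.12 and 9.09 at day 3 (1.43 ± 0.14, adjusted p = 0.000167). Fbn2, the fibrillin of developing tissue, had 9.40 and 9.79 at day 5, against 8.33 and 8.10 at day 3 (1.38 ± 0.15, adjusted p = 0.000282). Tenascin N (Tnn) had 9.71 and 10.17 at day 5, against 8.81 and 8.35 at day 3 (1.36 ± 0.17, adjusted p = 0.000755). These 3 calls held without each pool. Postn, periostin, and Tnc, tenascin C, rose by 0.75 ± 0.17 (adjusted p = 0.0209) and 0.65 ± 0.15 (adjusted p = 0.0187). Without the day 3 right pool, the day 3 left pool, the day 5 right pool or the day 5 left pool neither was called (adjusted p = 0.0881, 0.0918, 0.0821 and 0.0855 for Postn, and 0.11, 0.0668, 0.0508 and 0.114 for Tnc).

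Enzymes that build and cut the matrix moved too. P4ha3, a prolyl hydroxylase of collagen, had 10.91 and 11.12 at day 5, against 9.71 and 9.82 at day 3 (1.25 ± 0.09, adjusted p = 3.67e-05). Of 22 collagen processing genes 10 rose and 1 fell (median 0.30), with 5 rises without the day 5 left pool. The cross-linking enzyme Lox differed by 0.15 ± 0.08 (adjusted p = 0.228). Mmp13, a collagenase, had 10.91 and 10.51 at day 5, against 8.73 and 9.09 at day 3 (1.80 ± 0.27, adjusted p = 0.00196). Among 31 proteases and inhibitors 13 rose and 4 fell (median 0.34). The neutrophil collagenase Mmp8 was among the falls, with 7.32 and 7.61 at day 5, against 8.43 and 8.998 at day 3 (-1.25 ± 0.34, adjusted p = 0.0417). Leaving out the day 3 right, day 3 left, day 5 right or day 5 left pool ended that call (adjusted p = 0.0842, 0.177, 0.144 and 0.121), as did a pool of day 7 or day 10, quantile normalization and a robust prior, and the falls of the list numbered 0, 1, 1 and 2 in that order, and 1 or 2 without a pool of day 7, day 10 or day 14. The inhibitor Timp1 differed by -0.18 ± 0.11 (adjusted p = 0.309).

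Markers of the cells that make matrix rose beside it. Lrrc15, a membrane protein of activated fibroblasts, had 11.17 and 11.31 at day 5, against 9.09 and 9.15 at day 3 (2.12 ± 0.16, adjusted p = 3.44e-05). Of 20 markers of fibro-adipogenic progenitors, the stromal cells of muscle, 11 rose and 1 fell (median 0.42), and the rises numbered 7 without either pool of day 3. Lum, the proteoglycan lumican, rose by 0.84 ± 0.12. Tendon markers rose in 8 of 16 cases, with falls in 1 (median 0.28), and the rises numbered 3 without the day 3 right pool and 5 without the day 3 left pool, the day 5 right pool or the day 5 left pool. Tnmd, tenomodulin, led that list with 10.23 and 9.88 at day 5, against 8.26 and 8.78 at day 3 (1.53 ± 0.17, adjusted p = 0.000292). Pericyte and smooth muscle markers rose in 7 of 14 cases, with falls in 0 (median 0.32; limma, 1 lower at an unadjusted p under 0.05), with 6 or 7 rises without 1 of the 4 pools. Tagln, transgelin, had 10.04 and 10.50 at day 5, against 9.07 and 9.36 at day 3 (1.05 ± 0.15), and the smooth muscle actin Acta2, which fetal muscle also uses, had 13.09 and 13.32 at day 5, against 12.21 and 12.29 at day 3 (0.95 ± 0.09). For endothelial markers the counts were near the shares over all genes, 6.41% higher and 4.74% lower. Endothelial markers rose in 1 of 25 cases, Vwf, and fell in 2, Apln and Angpt2, with 0 of the 3 called without the day 3 right pool and Vwf also not without the day 3 left or day 5 left pool. Of the TGF-beta, activin and BMP axis 7 of 33 genes rose and 1 fell (median 0.09), led by the ligand Tgfb3 (0.72 ± 0.08, adjusted p = 0.000324), and 4 rose without the day 3 right pool or the day 5 left pool. Nog, the BMP antagonist noggin, was the member that fell (-0.47 ± 0.08, adjusted p = 0.00492). How far more stromal cells or more RNA in each lie behind the matrix genes was not tested.

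**Figure D3:**
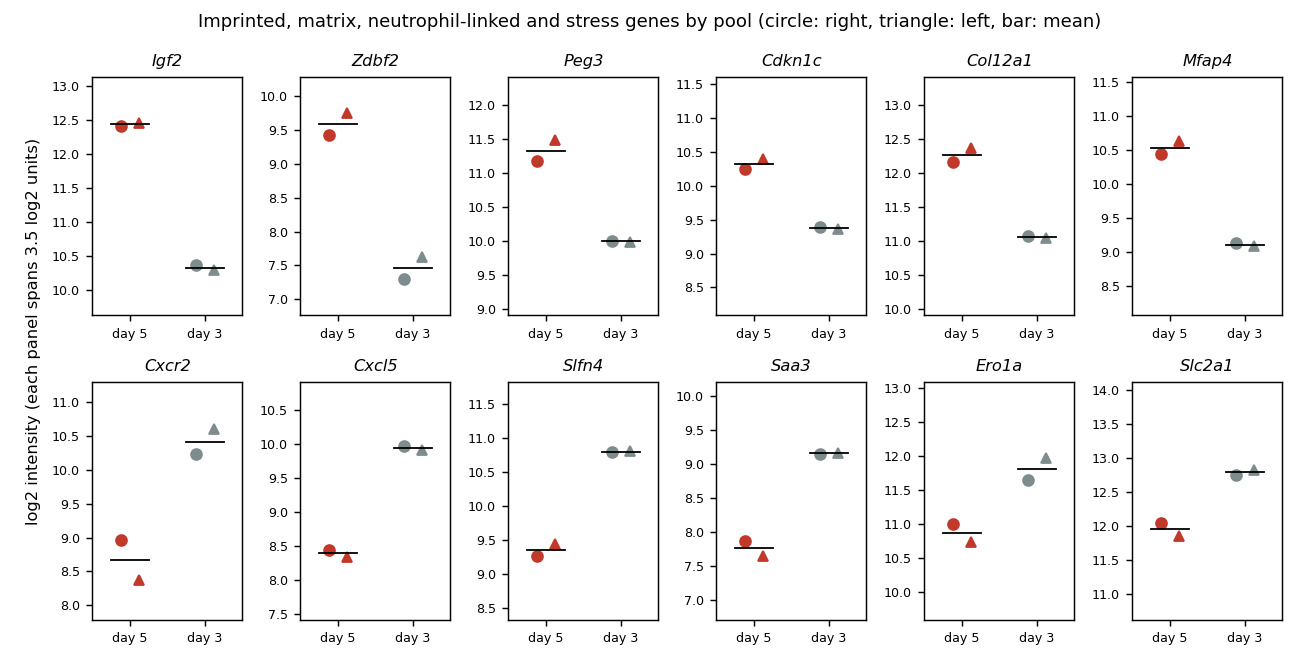
Log2 intensity of 12 imprinted, matrix, neutrophil-linked and stress genes in each pool, day 5 left of day 3, with right pools as circles, left pools as triangles and the day mean as a bar; every panel spans the same range of log2 units. The day 5 pools lie above the day 3 pools for Igf2, Zdbf2, Peg3, Cdkn1c, Col12a1 and Mfap4 and below them for the other 6 genes.

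Neutrophil genes were among the largest falls. Cxcr2, the chemokine receptor that draws neutrophils into tissue, had 8.97 and 8.37 at day 5, against 10.23 and 10.59 at day 3, a difference of -1.74 ± 0.35 (adjusted p = 0.0105). S100a8, a subunit of calprotectin, had 8.31 and 7.96 at day 5, against 9.66 and 10.34 at day 3 (-1.87 ± 0.42, adjusted p = 0.0175). Neither call held without the day 3 left pool (adjusted p = 0.0652 for Cxcr2 and 0.0978 for S100a8) or the day 5 left pool (0.0967 and 0.119). Slfn4, a Schlafen gene of myeloid cells, had 9.27 and 9.45 at day 5, against 10.79 and 10.81 at day 3 (-1.44 ± 0.13, adjusted p = 7.46e-05), and Clec4e, a pattern receptor of myeloid cells, had 8.66 and 8.76 at day 5, against 9.75 and 10.25 at day 3 (-1.28 ± 0.20, adjusted p = 0.00264). Both calls held without each pool. Of 25 neutrophil markers 14 fell and 0 rose (median -0.79, against -0.06 over all genes; limma, 0 higher at an unadjusted p under 0.05), and 21 of 25 had both day 5 pools below both day 3 pools, beside 39% of all genes. The falls numbered 7 without the day 3 right pool, 2 without its left pool, 7 without the day 5 right pool, 2 without its left pool and 9 without either pool of day 10.

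Chemokines moved in both directions. Cxcl5, which attracts neutrophils, had 8.45 and 8.34 at day 5, against 9.97 and 9.91 at day 3 (-1.55 ± 0.16, adjusted p = 0.000215), and Cxcl3, with the same kind of target, had 7.18 and 7.29 at day 5, against 8.29 and 9.12 at day 3 (-1.47 ± 0.26, adjusted p = 0.00621). The monocyte chemokines Ccl2 (11.43 and 11.66 at day 5, against 12.25 and 12.40 at day 3) and Ccl7 (11.18 and 11.54 at day 5, against 12.09 and 12.05 at day 3) fell by 0.78 and 0.71 (adjusted p = 0.00237 and 0.00149). Cxcl16, a membrane chemokine of macrophages and dendritic cells, had 10.29 and 10.39 at day 5, against 9.66 and 9.75 at day 3 (0.64 ± 0.09, adjusted p = 0.00128). Cxcl9, a chemokine that attracts T cells, rose by 0.84 ± 0.15 (adjusted p = 0.00507, but not called without the day 5 left pool). Over the 29 chemokines 12 fell and 5 rose (median -0.27), and the falls numbered 7 without the day 3 left pool and 5 without the day 5 left pool. The rises numbered 3, 3, 3 and 2 without the day 3 right, day 3 left, day 5 right and day 5 left pools, and 3 with the hepatocyte covariate. Cytokines and their receptors fell in 7 of 35 cases, with rises in 0 (median -0.24; limma, 0 higher at an unadjusted p under 0.05), but in 3, 3 and 2 without the day 3 right pool, the day 3 left pool and the day 5 left pool. Il1b, interleukin 1 beta, had 9.17 and 8.99 at day 5, against 10.11 and 10.04 at day 3 (-0.99 ± 0.19, adjusted p = 0.00948, with 0.0747 without the day 3 right pool and 0.0802 without the day 5 left pool).

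Macrophage genes went several ways. The acute phase gene Saa3, which inflammatory monocytes and stroma make, had 7.88 and 7.65 at day 5, against 9.15 and 9.17 at day 3 (-1.40 ± 0.11, adjusted p = 3.85e-05). Fcgr1, the high affinity Fc receptor of monocytes, fell by 0.69 (adjusted p = 0.00218). In contrast, Ms4a7, a membrane protein of mature macrophages, had 11.27 and 11.41 at day 5, against 10.81 and 10.86 at day 3 (0.51 ± 0.07, adjusted p = 0.00143). Ctsk, the lysosomal protease cathepsin K of osteoclasts and fibroblasts, had 10.54 and 10.73 at day 5, against 9.29 and 9.39 at day 3 (1.29 ± 0.16, adjusted p = 0.000809). These 4 calls held without each pool. The pan-macrophage markers Adgre1 (11.33 and 11.43 at day 5, against 11.45 and 11.25 at day 3) and Cd68 (12.43 and 12.58 at day 5, against 12.76 and 12.77 at day 3) were not called (adjusted p = 0.85 and 0.0672), though Cd68 was called lower under quantile normalization, with a trended prior, without the dimmest class of genes and without a pool of day 0. Arg1, the arginase of repair macrophages, had 10.74 and 10.47 at day 5, against 11.42 and 11.79 at day 3 (-0.998 ± 0.431, adjusted p = 0.148). It was called with the 4 arrays alone (adjusted p = 0.0106) and without a pool of day 0, and the hepatocyte covariate moved its difference to -0.57 (adjusted p = 0.36).

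Of 29 pan-macrophage markers 1 rose and 5 fell (median -0.21), with falls in 1, 1, 1 and 2 cases without the day 3 right, day 3 left, day 5 right and day 5 left pools, in 9 without a pool of day 0 and in 3 without a pool of day 7, day 10 or day 14. Of 19 inflammatory monocyte genes 1 rose and 5 fell (median -0.54), with falls in 3, 2, 2 and 1 cases and rises in 0 cases without those pools. Of 34 tissue and repair macrophage genes 3 rose and 5 fell (median 0.06), with falls in 0, 1, 2 and 0 cases and rises in 2 without any one of them. Without a pool of day 1 the rises numbered 6, and with the hepatocyte covariate 4 rose and 3 fell. Lyve1, a receptor of resident macrophages, had 9.59 and 9.44 at day 5, against 10.12 and 10.02 at day 3 (-0.56 ± 0.12, adjusted p = 0.0129, with 0.105 without the day 3 right pool and 0.101 without the day 5 left pool). Over all genes 6.41% were called higher and 4.74% lower. Rises of the macrophage and monocyte lists lay near that share and are not read as changes of a list. The list of MHC class II and antigen presentation rose in 3 of 14 cases, with falls in 0 (limma, 1 lower at an unadjusted p under 0.05). Of the 3, Cd83, also counted as a marker of mature dendritic cells, rose by 0.58 ± 0.11 (adjusted p = 0.00617). The others were H2-Aa and H2-Ab1. The call on H2-Ab1 was lost with the hepatocyte covariate (adjusted p = 0.085) and with the 4 arrays alone (0.0965). The rises of that list numbered 1 without the day 3 right pool, and 2 with the hepatocyte covariate, without the day 3 left pool or without the day 5 right pool.

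Lymphocyte and natural killer markers rose in 7 of 25 cases, with falls in 0 (median 0.02; limma, 0 lower at an unadjusted p under 0.05), with 4 or 5 rises without 1 of the 4 pools 4 without the day 3 right pool, the day 3 left pool or the day 5 left pool, and 3 without the dimmest class of genes. Ncr1, the natural killer receptor NKp46, had 7.42 and 7.71 at day 5, against 6.69 and 6.88 at day 3 (0.78 ± 0.12, adjusted p = 0.00212). Gzmd, the granule protease granzyme D, is not a member of that list. It had 6.64 and 6.72 at day 5, against 4.54 and 4.93 at day 3 (1.95 ± 0.17, adjusted p = 6.57e-05). These low levels lay below the list's medians of 7.245 and 7.288 at day 5 and 7.031 and 7.079 at day 3. The lists of this paragraph stand beside 6.41% of all genes called higher and 4.74% called lower. Interferon response genes fell in 7 of 29 cases, with rises in 0 (median -0.20). In limma 1 of them was higher at an unadjusted p under 0.05. Oas3, an RNA sensor, had 8.13 and 8.20 at day 5, against 8.78 and 8.60 at day 3 (-0.52 ± 0.12, adjusted p = 0.017). Its fall was not called without the day 3 right pool (adjusted p = 0.141), the day 5 right pool (0.0698) or the day 5 left pool (0.0717), and the list's falls numbered 1 without any of these, 8 without the day 3 left pool and 10 with the hepatocyte covariate. Mast cell and eosinophil markers fell in 4 of 13 cases, with 0, 0, 1 and 0 falls without the day 3 right, day 3 left, day 5 right and day 5 left pools and 2 with the hepatocyte covariate or without a pool of day 10 or day 14. Complement genes rose in 4 of 17 cases, with 0, 1, 0 and 2 rises without the same pools and 6 with the hepatocyte covariate.

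Some genes of stress responses and of fuel use fell. Ero1a, an oxidase that helps form disulphide bonds in the endoplasmic reticulum, had 11.01 and 10.73 at day 5, against 11.65 and 11.97 at day 3 (-0.94 ± 0.12, adjusted p = 0.00074). Sdf2l1, a folding factor of the same compartment, had 10.00 and 10.13 at day 5, against 10.87 and 10.95 at day 3 (-0.84 ± 0.10, adjusted p = 0.000403). Atf3, a stress-induced transcription factor, had 10.89 and 10.64 at day 5, against 11.55 and 11.60 at day 3 (-0.81 ± 0.10, adjusted p = 0.000748). All 3 lay lower in both day 5 pools. Of 32 genes of folding and stress in the endoplasmic reticulum 11 fell and 0 rose (median -0.23; limma, 0 higher at an unadjusted p under 0.05), with 5 falls without the day 3 right pool, the day 3 left pool or the day 5 left pool. Of 25 immediate early and AP-1 genes 6 fell and 2 rose, with 4 falls without the same 3 pools. The rises of that list numbered 0 with the hepatocyte covariate and 0 to 1 without 1 of the 4 pools, with 1 without the day 5 right pool. Myc, a driver of growth and of ribosome production, had 10.70 and 10.78 at day 5, against 11.13 and 11.36 at day 3 (-0.50 ± 0.09, adjusted p = 0.00489).

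Ribosome biogenesis genes fell in 10 of 48 cases, with rises in 0 (median -0.18; limma, 1 higher at an unadjusted p under 0.05), as for the processing factor Rrp12 (9.20 and 9.14 at day 5, against 9.63 and 9.61 at day 3; -0.45 ± 0.07, adjusted p = 0.00363). The falls numbered 2 with the hepatocyte covariate and 16 under quantile normalization. They numbered 3, 2, 2 and 3 without the day 3 right, day 3 left, day 5 right and day 5 left pools, and 6 without a pool of day 10 or day 14. Heat shock and load stress genes fell in 3 of 24 cases, with 8 falls with the hepatocyte covariate and 6 under quantile normalization, and with 0, 1, 8 and 0 falls without the pools in the same order. Some genes of glucose entry and breakdown fell, with 7 of 27 lower and 0 higher (median -0.16). In limma 1 of them was higher at an unadjusted p under 0.05, and fewer falls were called without 1 pool of day 3. Slc2a1, the glucose transporter GLUT1, had 12.04 and 11.86 at day 5, against 12.75 and 12.83 at day 3 (-0.84 ± 0.08, adjusted p = 0.000102), and Hk2, the hexokinase of muscle, had 10.61 and 10.38 at day 5, against 11.26 and 11.25 at day 3 (-0.76 ± 0.11, adjusted p = 0.00205). Trim63, the atrophy ligase MuRF1, had 10.59 and 10.35 at day 5, against 11.11 and 11.14 at day 3 (-0.65 ± 0.09, adjusted p = 0.00164). Pdk4, which shuts off pyruvate use, fell by 0.63 (adjusted p = 0.00346). Ppargc1a, the co-activator of mitochondrial genes, had 9.20 and 8.64 at day 5, against 8.09 and 8.37 at day 3 (0.69 ± 0.17, adjusted p = 0.0282). That call was lost with the hepatocyte covariate (adjusted p = 0.0669), without the day 3 right pool (0.201), without the day 5 right pool (0.132) and with the 4 arrays alone (0.062). Of 52 oxidative phosphorylation genes 1 rose and 0 fell (median 0.07; limma, 2 lower at an unadjusted p under 0.05). The rise, of the complex I subunit Ndufs1, was not called without either pool of day 3, without the day 5 right pool, with the hepatocyte covariate or with the 4 arrays alone.

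Genes of mitosis were not called. Mki67, the proliferation antigen, had 10.78 and 11.07 at day 5, against 10.55 and 10.63 at day 3 (0.34 ± 0.38, adjusted p = 0.564), and Top2a, the topoisomerase of dividing cells, had 10.17 and 10.42 at day 5, against 10.01 and 10.04 at day 3 (0.27 ± 0.28, adjusted p = 0.531). Of 46 mitosis genes 0 were called in limma, 4 had an unadjusted p under 0.05, and at most 1 was called with another normalization, filter or variance prior, with the block or the covariate, or without 1 pool. With the 4 arrays alone, for which list counts were not run, the adjusted p was 0.113 for Mki67 and 0.147 for Top2a. In 45 of the 46 the difference was above 0 (median 0.27, against -0.06 over all genes). Both day 5 pools lay above both day 3 pools in 27, beside 23.2% of all genes. Dividing cells share these genes, so they are not independent, and the count of directions is not read as a rise of the list. Of 40 DNA replication genes 1 fell and 0 rose (median 0.01; limma, 2 higher at an unadjusted p under 0.05). The member that fell was the uracil glycosylase Ung, with 7.98 and 8.0 at day 5, against 8.35 and 8.34 at day 3 (-0.35 ± 0.06, adjusted p = 0.00437, and 0.0506 with the 4 arrays alone). Promoter windows of the mitosis list held TTTGAA (or TTCAAA on the other strand) in 78.0% of 41 windows and CCAAT (or ATTGG) in 70.7%, against 17.9% and 37.4% of all windows, and in 17.5% and 52.5% of the 40 windows of DNA replication genes.

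The step was also set against its neighbours. From day 1 to day 3, 6920 genes changed (34.7%), and from day 5 to day 7, 230 genes changed (1.15%). These steps share the day 3 or day 5 arrays with the step from day 3 to day 5, so the difference between steps was tested directly. It differed from the step before for 3061 genes (15.4%), 1295 with a higher change (6.5%) and 1766 with a lower one (8.86%), and 397 such genes were called without the day 3 right pool, 1446 without its left pool and 1903 without the day 5 right pool. Plk1, a kinase of mitosis, changed by 0.15 between day 3 and day 5 and by 2.72 between day 1 and day 3, a difference between steps of -2.57 (adjusted p = 0.0012). Mitosis genes were called higher in 46 of 46 cases from day 1 to day 3, where 21.5% of all genes were. Sfrp2, a secreted Wnt regulator of stroma, changed by 0.45 and by 3.91 (difference -3.46, adjusted p = 0.000211). On the other side stood genes such as Zdbf2, Itm2a and Myh8, which were not called between day 1 and day 3. Zdbf2 changed by 2.12 between day 3 and day 5, against 0.03 between day 1 and day 3 (difference 2.08, adjusted p = 0.00113), Itm2a, a membrane protein of differentiating muscle, by 1.95 against -0.09 (difference 2.04, adjusted p = 0.000241), and Myh8 by 1.98 against 0.31 (difference 1.66, adjusted p = 0.0109). Myh3 changed by 2.42 between day 3 and day 5, against 2.62 between day 1 and day 3 (adjusted p = 0.742 for the difference, with an error of 0.37).

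**Figure D4:**
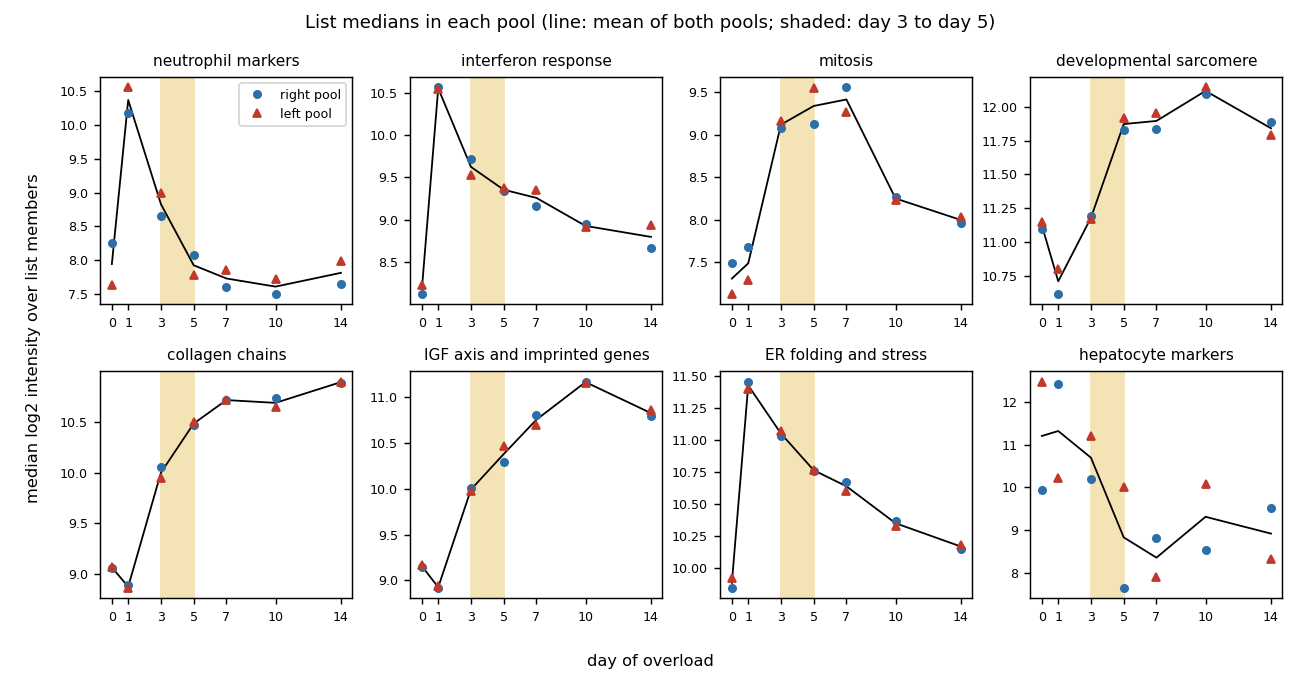
Median log2 intensity over the members of 8 gene lists in each pool at the 7 days, with right pools as circles, left pools as triangles, the mean of both as a line and the interval from day 3 to day 5 shaded. The developmental sarcomere median stands at 11.83 and 11.92 at day 5, against 11.19 and 11.17 at day 3, and the hepatocyte median differs widely between pools of one day.

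The step differed from the following one for 11 genes (0.0552%), each with the larger rise between day 3 and day 5, and for 0 genes with the larger fall. At an unadjusted p under 0.05 these counts were 679 and 1011 in limma. The count was 0 without the day 5 left pool, and 3, 5, 2, 2 and 1 without the day 3 right, day 3 left, day 5 right, day 7 right and day 7 left pools. Without a pool of day 1 it was 18, without a pool of day 10 it was 2, and without a pool of day 14 it was 4. Igf2 had the smallest p of them, with a change of 2.11 ± 0.09 between day 3 and day 5, against 0.27 ± 0.09 between day 5 and day 7, a difference of 1.84 ± 0.15 (adjusted p = 0.00198). Mymk changed by 1.73 and by 0.05 (difference 1.68 ± 0.23, adjusted p = 0.0331). The costamere genes Pgm5 and Itgb1bp2, whose proteins join the sarcomere to the cell membrane, both rose by 1.17 and then changed by 0.18 and 0.14 (adjusted p = 0.0266 for both differences). Pgm5 had 10.44 and 10.56 at day 5, against 9.36 and 9.30 at day 3, and Itgb1bp2 had 10.72 and 10.65 at day 5, against 9.46 and 9.56 at day 3. The Wnt antagonist Sfrp1 had 11.30 and 11.40 at day 5, against 9.70 and 9.59 at day 3 (1.70 ± 0.10), followed by a change of 0.08 (adjusted p = 0.0101 for the difference). Chga, the granule protein chromogranin A, rose by 1.65 ± 0.12 and then changed by 0.16 (adjusted p = 0.0436).

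**Figure D5:**
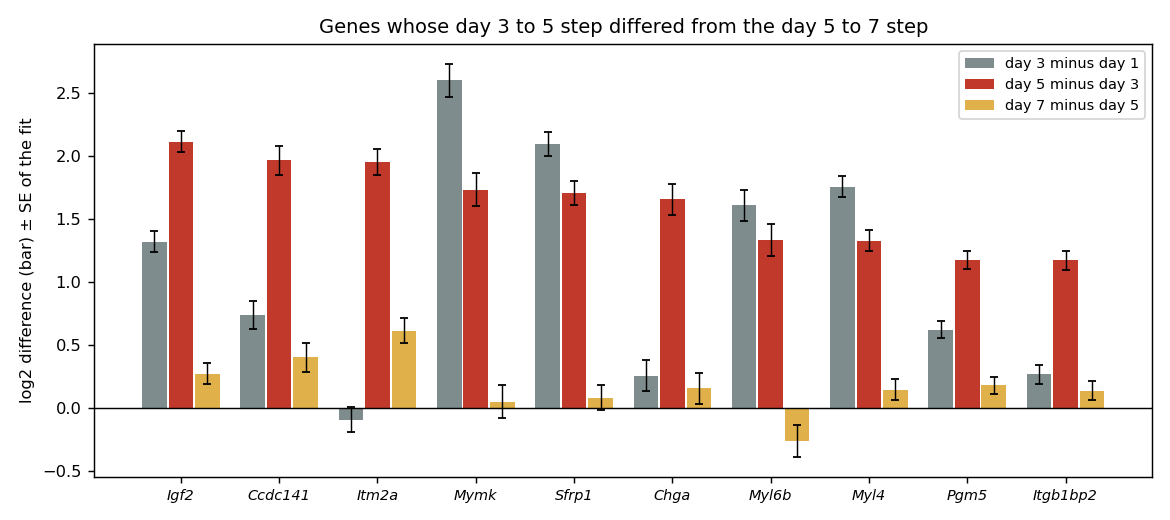
Log2 differences (bars) with the SE of the fit for 10 of the 11 genes whose change from day 3 to day 5 differed from that from day 5 to day 7, in 3 consecutive steps. All 10 rose by more than 1 log2 unit between day 3 and day 5 and changed by at most 0.61 between day 5 and day 7.

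Over the whole course, the genes of the step stood at different points of their own curves. Mean log2 intensity of Myh3 at days 0, 1, 3, 5, 7, 10 and 14 was 7.71, 6.86, 9.48, 11.91, 12.53, 12.23 and 11.78. For Igf2 the means were 9.91, 9.01, 10.32, 12.44, 12.71, 13.15 and 12.55 at the same days. Both stood above their day 0 level at day 5 and later. Cxcr2 had means of 6.94, 12.08, 10.41, 8.67, 7.45, 6.45 and 6.70, so its day 5 level was below its levels at days 1 and 3 and above that at day 0. Itgb1bp2 had 10.60, 9.25, 9.51, 10.68, 10.82, 11.19 and 11.17, so it was back near its day 0 level at day 5.

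The remaining lists had at most 3 calls in either direction, beside 6.41% higher and 4.74% lower over all genes. Counts this small are not read as changes of a list. Inhibitors of the cell cycle and p53 targets rose in 2 of 19 cases, Cdkn1c and the retinoblastoma gene Rb1, and fell in 3. The falls numbered 1, 1, 2 and 1 without the day 3 right, day 3 left, day 5 right and day 5 left pools, and the rises 1 without the day 3 right pool and 4 without the day 3 left pool. Metabolic regulators rose in 2 of 20 cases, Ppargc1a and the AMP kinase subunit gene Prkag3, and fell in 3, Trim63, Fbxo32 and Ppard. Genes of fatty acid use rose in 1 of 26 cases, Hsd17b10, and fell in 1, Pdk4. The call on Rb1 was lost without the day 3 right pool (adjusted p = 0.0859) and that on Fbxo32 without the day 5 left pool (0.055). That on Hsd17b10 was lost without each of the 4 pools (adjusted p between 0.0622 and 0.243). Circadian clock genes rose in 3 of 17 cases, with falls in 2, with the clock output gene Dbp at 10.02 and 9.83 at day 5, against 9.12 and 9.24 at day 3 (0.75 ± 0.09, adjusted p = 0.000403). The falls of that list numbered 0 without any one of the 4 pools, and the times of day at which muscle was taken are not given in the sources used here. Cytosolic ribosomal protein genes (35 measured, 4 higher and 0 lower at an unadjusted p under 0.05), citrate cycle genes (23, 3 and 0), erythroid markers (5, 0 and 0) and keratinocyte markers (9, 1 and 3) had 0 calls each in limma. Schwann and nerve markers had 1 rise among 15 (Erbb3, not called without the day 3 right, day 3 left or day 5 left pool, with adjusted p = 0.194, 0.102 and 0.234), adipocyte markers had 1 fall among 12 (Plin4), dendritic cell markers had 1 rise among 15 (Cd83), and genes of the lysosome and phagocytosis had 1 rise among 28 (Ctsk).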

How the data were processed

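RNA of 14 plantaris pools was measured on 1 array each. The authors deposited 1 linear intensity per probe set, made with Partek per the submitters' processing notes, whose version is not given; how they were summarised and normalized is not given in the sources used here. The RNA used is given as 100 ng by the design text and as 250 ng by the label protocol. Of 35556 probe sets, 21789 carried 1 gene symbol, 1621 several and 12146 none in the annotation used. For 999 genes the brightest of several probe sets was taken, which left 19938 genes.

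The log2 values were fitted in limma 3.58.1 (R 4.3.3) with 1 mean per day over all 14 arrays, giving 7 residual degrees of freedom and 3.88 from the variance prior. Tests were two-sided, with Benjamini-Hochberg adjustment over all genes in each comparison and calls at an adjusted p under 0.05. Precision is limited by the 2 arrays a day, with a median standard error of 0.0988.

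The 49 gene lists (1222 of 1320 entries measured), the step described and the 45 panel genes were chosen with earlier results of these data known. Lists share members and got no set test. The genes named are the 15 that rose most and the 15 that fell most, if called and not overlapping between groups, up to 3 called members each way per list, the panel, and 5 each way for each test between steps. Counted only were Y-linked genes, gene models, small RNAs, immune receptor segments, and olfactory or vomeronasal receptors. A few genes outside this rule are named because a count rests on them. Since this rule favours called genes with large differences, how many named genes keep a call or sign does not measure how calls over all genes hold.

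On simulated data for day 5 against day 3, 50 genes were changed at each size among 19938. Of these, 68% of 1.5-fold, 96% of 2-fold, 100% of 4-fold and 98% of 8-fold changes were recovered, with 6 false calls, and 0 calls with no change added. The simulated noise was drawn separately for each gene, with no deviation shared by genes of a pool. These counts therefore do not measure false calls in the real data. Promoter windows are RefSeq's (GRCm38.p6). Alternatives were equal array medians, quantile normalization, dropping the dimmest of 3 equal gene classes, averaging or keeping all probe sets, a trended or robust prior, side as a block, only the 4 arrays of both days, treat against 1.5-fold, an adjusted p under 0.01 and leaving out each pool. The covariate of hepatocyte genes was chosen after seeing the data. Figures were drawn with matplotlib 3.10.9.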

Additional observations from a re-analysis of the deposited data

Results flagged for a closer look

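The change from day 3 to day 5 differed from that from day 1 to day 3 for 3061 genes and from that from day 5 to day 7 for 11 genes, by a test of the difference itself.

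For 7 named genes the step went one way in the right pools and the other way in the left pools, and this difference was not tested, since each side has 1 pool a day. The right pools' change minus the left pools' change was -0.43 for Myod1, 1.07 for Mstn, -0.37 for the nucleotide reductase gene Rrm2, -0.29 for Adgre1, -0.68 for the macrophage glycoprotein gene Gpnmb, -0.35 for the receptor gene Flt3 and -0.35 for Ifit1bl2. None of these 7 genes was called between day 3 and day 5. Mstn, for example, changed by 0.62 in the right pools and by -0.46 in the left pools.

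Outside the genes described, 13767 probe sets carried no single gene symbol. In a fit of all probe sets 785 of them were called between day 3 and day 5, of which 536 rose and 249 fell.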

How the results depend on the processing

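Of 167 named genes called, 128 kept their call under all 9 alternatives other than leaving out a pool, 88 without each of the 14 pools and 87 under all; 12 lost it with side as a block, 17 with the hepatocyte covariate, 28 with the 4 arrays alone and 2 under quantile normalization, and 0 changed sign.

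The number of genes changed between day 3 and day 5 was 1424 with the 4 arrays alone (561 lower), 74 with treat (69 higher, 5 lower) and 749 at an adjusted p under 0.01 (572 higher, 177 lower). Past 2-fold it was 298 with all probe sets (253 higher, 45 lower), 74 with treat and, for falls at an adjusted p under 0.01, 13. Without 1 pool it ranged from 697 to 2333 (519 to 1337 higher, 178 to 996 lower), and past 2-fold from 115 to 177 (100 to 152 higher, 15 to 29 lower). Rises made up 57.5% of the genes called, against 53.1% under quantile normalization, 67.4% with all probe sets, 74.5% without the day 3 right pool and 73.8% without the day 5 left pool.

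The difference from the step before held for 397 to 2945 genes without 1 pool (187 to 1236 higher, 210 to 1709 lower), past 2-fold for 261 to 688 (130 to 359 higher, 131 to 348 lower). The difference from the step after held for 22 genes with a trended prior, for 7 with the replicate block (6 past 2-fold) and, without 1 pool, for 0 to 18 genes (0 to 17 past 2-fold). The cause of these shifts was not tested, apart from fewer arrays or a stricter threshold where the alternative sets them.

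Right pools carry the number 1 and left pools 2. Deviations of same-numbered pools correlated between days at -0.58 to 0.44 (median -0.06), over 0.1 in 9 of 21 pairs of days. Between day 3 and day 5 the correlation was 0.31. The numbers thus showed no pairing kept over all days, which does not settle whether sides are paired at these 2 days. With side as a block 1878 genes were called between day 3 and day 5 (1139 higher, 739 lower). Under it falls of interferon response genes numbered 4, rises of excitation-contraction coupling genes 3, falls of mast cell markers 2 and of matrix proteases 2, and Mymx was not called (adjusted p = 0.0599).

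With 2 pools a day, an effect must exceed the errors given several times over to be called. Myh4, for example, was not called in limma at -0.30 ± 0.12 (adjusted p = 0.128). A dim gene's change is understated where background makes up much of its intensity.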
